A study of Homo sapiens with 6 samples.

Results

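C/D box small nucleolar RNAs (snoRNAs) were taken as the genes whose array annotation gives a single symbol starting with SNORD, and 115 of the 18404 genes with a single symbol met this rule. The rule used names and no measured value. Each of the 115 had 1 probe set, so no choice between probe sets was needed. A further 37 probe sets name a SNORD gene together with another gene and are not members. Expression was measured in MDA-MB-231, an established human line of a mesenchymal, triple-negative breast cancer, grown in DMEM with 25 mM glucose or with 10 mM fructose. The 3 arrays per sugar came from separately adapted batches of cells kept for 25 days in their sugar. Total RNA was extracted at some 70% confluency, 24 hours or so after the last medium change. The kind of sugar and its concentration differed together and cannot be told apart, and all batches come from a single cell line. Whether fewer cells carried a snoRNA or each cell carried less of it cannot be told apart in RNA of whole cultures.

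Most human C/D box snoRNAs lie in introns of a host gene, are cut from the spliced intron, and are held in a particle with the proteins fibrillarin (FBL), NOP56, NOP58 and SNU13. The particle pairs with a target and methylates the ribose at the paired base, mainly in ribosomal RNA, while a few members such as U3, U13 and U14 act in cleavage, folding or acetylation of the precursor of the small ribosomal subunit. Hosts are mostly genes of ribosomal proteins and translation factors, and noncoding genes such as GAS5 and SNHG1 whose spliced RNA is short-lived. The imprinted copies SNORD113 to SNORD116 have no known ribosomal target, and SNORD115 and SNORD116 lie in the Prader-Willi locus and are best known from brain. RefSeq lengths of the members ran from 60 to 205 bases with a median of 81, and 114 of 115 were at most 200 bases. Silica columns of the kind used here recover such short RNA poorly, and a probe in an intron can also read the host's unspliced RNA, so a value here is the signal at the snoRNA's position and not a count of mature snoRNA.

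The transcripts that carry many of these snoRNAs begin in a recognisable way, and starts of 8 hosts of the members described below are shown for that reason. Each line runs 5′ to 3′ on the gene's strand from 15 bases before to 15 bases from the RefSeq start (GRCh38.p14). Capitals mark the run of C and T letters, of any length, that opens the transcript with a C. A terminal oligopyrimidine start is made of such letters, and only runs of 4 or more are counted below.
GAS5: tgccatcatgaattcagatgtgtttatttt
SNHG1: ccggggagattcgttCTCatttttctactg
SNHG5: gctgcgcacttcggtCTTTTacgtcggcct
SNHG32: ctcgccattttagttCTTTTTgcgaagtgg
HSPA8: cgggcggaaaccggtCTCattgaactcgcc
RABGGTB: ctgaccctgctctctCCTTTCCCTgttaga
RPL13A: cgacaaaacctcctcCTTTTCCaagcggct
RACK1: ggggggcttttctctCTCTCTTTCactgca
They lie at chr1:173869031-173869060 (GAS5), chr11:62855871-62855900 (SNHG1), chr6:85678719-85678748 (SNHG5), chr6:31834901-31834930 (SNHG32), chr11:123062122-123062151 (HSPA8), chr1:75786241-75786270 (RABGGTB), chr19:49487593-49487622 (RPL13A) and chr5:181243892-181243921 (RACK1), with SNHG32, RABGGTB and RPL13A on the plus strand and the others on the minus strand. A start with C followed by C or T letters, 4 or more in all and on the gene's strand only, was held by 11 of the 27 hosts with an entry and by 5.45% of all 27305 genes of the table. Among ribosomal protein hosts 5 of 6 had it, among noncoding hosts 3 of 7 and among other protein hosts 3 of 14. The table gives 1 start per gene, which may not be the main one in these cells. The start it gives for GAS5 opens with no such letters, and those of SNHG1 and HSPA8 open with 3.

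In fructose the brighter C/D box snoRNAs were lower than in glucose. By class of locus the median difference was the lowest for the 16 members assigned to noncoding hosts, -0.53. Of the 16, 7 lie in GAS5, and the other 9 had a median of -0.41. SNORD7 (-0.24), SNORD60 (0.08) and SNORD104 (-0.22) were left without an assigned host and are not in this class. RefSeq places them within the span of SNHG30, SNHG19 and SNHG25. Of the 115 members, 43 had a mean log2 intensity over the 6 arrays above 5.65, the median of gene-annotated probe sets, and these are called bright. SNORD45B lay just inside this limit at 5.66 and SNORD82 just outside at 5.46. Among the bright members 37 of 43 were lower in fructose, with a median log2 difference (fructose minus glucose) of -0.27 and a range from -1.16 to 0.16, where all bright probe sets had a median of 0.01. Relative to each gene's glucose mean, the median bright member stood at -0.28, -0.26 and -0.40 on fructose arrays 1 to 3, beside -0.04, 0.03 and 0.01 on those of glucose. No fructose array reached the range of the glucose arrays. For 24 of the 43, which is 55.8%, every fructose array was below every glucose array, against 15.2% of all bright probe sets, and for 1 every fructose array was above, against 16.4%. At an unadjusted p under 0.05 in limma, 22 of the 43 were lower, against 8.38% of bright probe sets, and 0 were higher, against 10.3%. After adjustment 0 of them passed, as did 0.00868% of bright probe sets (lower) and 0% (higher).

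None of the 115 members passed limma's test after Benjamini-Hochberg adjustment over 28230 probe sets, where 0.00354% of all probe sets passed as lower and 0% as higher. The smallest adjusted p among them was 0.11. At an unadjusted p under 0.05, 28 of the 115 members were lower, against 5.43% of all probe sets, and 6 of the 115 were higher, against 7.65%. The outcome depended on how the variance was modelled. With an intensity trend and robust variances in limma, 13 of the 115 members (11.3%) fell past the adjusted threshold and 0 rose, against 0.762% of all probe sets lower and 0.914% higher. When bright probe sets alone were tested, 15 of 43 (34.9%) fell and 0 rose, against 2.15% and 3.1%. The same 13 genes passed under both settings, and they include members in GAS5, HSPA8, RABGGTB, SNHG1, SNHG32 and SNHG5. Some other settings raised the adjusted p of members. That of SNORD28 was 0.29 in limma with the replicate number as a block and 0.18 in an unmoderated test. The median over all 115 members was -0.05, beside 0.02 over all probe sets. It was -0.11 without glucose replicate 1 and -0.10 without fructose replicate 3, so single arrays moved it. The 72 dim members had a median of 0.03, with 6 (8.33%) lower and 7 (9.72%) higher without overlap of arrays. Over all probe sets these shares were 8.81% and 11.4%, but that includes the bright ones, with 15.2% and 16.4%. All 6 lower ones were among the 28 dim members outside the imprinted loci, and all 7 higher ones among the 44 dim imprinted copies.

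**Figure D1:**
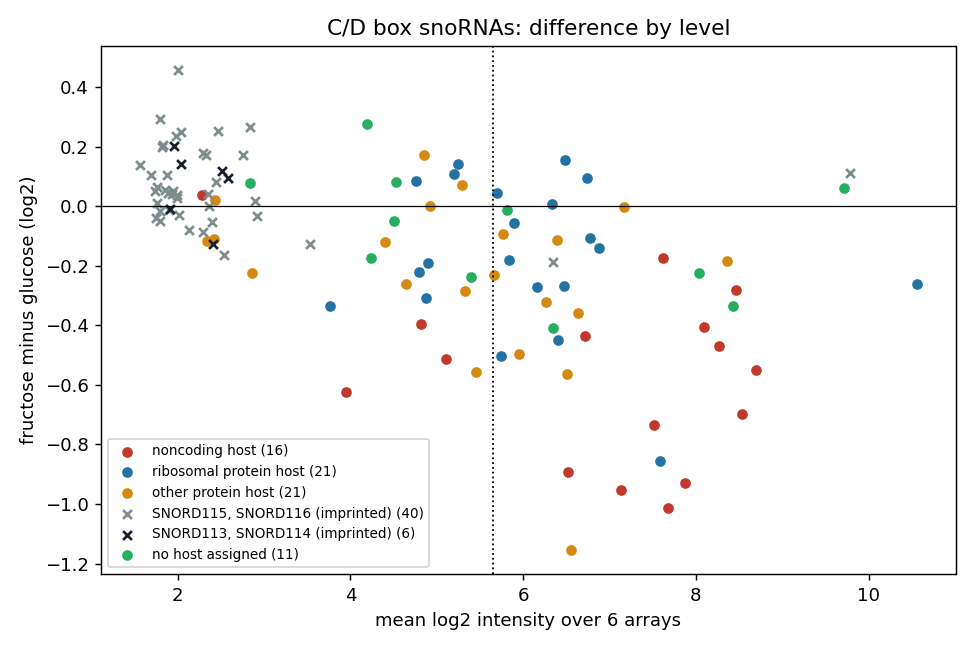
Each point is 1 of the 115 C/D box snoRNAs, with its mean log2 intensity over 6 arrays on the x axis and its log2 difference, fructose minus glucose, on the y axis, coloured by locus. Right of the dotted limit at 5.65, 37 of 43 members lie below 0, and 44 of the 46 imprinted copies lie at the left, at levels up to 3.53.

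GAS5, a growth-arrest transcript whose exons code for no protein, had 7 measured members, and all 7 were lower on every fructose array than on any glucose array. The same held for 8.81% of all probe sets and 15.2% of bright ones. The 7 members share 1 host, so they need not be independent. Their median difference was -0.70, and it lay between -0.76 and -0.64 with any single array left out. SNORD74, a ribosomal RNA methylation guide as its neighbours are, had log2 intensities of 8.91, 8.91 and 8.83 in glucose and 8.10, 8.19 and 8.28 in fructose. The groups stood apart by more than their own spread, with a difference of -0.70 (SE 0.08, limma adjusted p = 0.11, and 0.0028 with an intensity trend). Its adjusted p was higher in some settings, 0.37 in limma with the replicate block and 0.17 in the unmoderated test. SNORD79 had 7.09, 6.99 and 6.81 in glucose against 6.01, 6.16 and 6.03 in fructose. It was 1.86-fold lower, from a mean glucose intensity of 125 ± 12.2 (SD, n = 3) to a fructose mean of 67.2 ± 3.80 (SD, n = 3), and had an adjusted p of 0.11 by limma, or 0.0065 with the trend.

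SNORD75 showed the largest difference of the cluster, -0.95 (SE 0.17). Its values were 7.69, 7.67 and 7.47 in glucose and 6.35, 7.03 and 6.60 in fructose, so fructose replicate 2 was the nearest to glucose. SNORD78 had 7.84, 8.06 and 7.73 in glucose and 7.20, 7.17 and 7.06 in fructose, a difference of -0.73 (SE 0.10). SNORD81, the brightest of the cluster, had 8.98, 8.87 and 9.06 in glucose and 8.34, 8.49 and 8.42 in fructose, a difference of -0.55 (SE 0.08).

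SNORD77 was dim, with 4.24, 4.55 and 3.98 in glucose and 3.69, 3.58 and 3.63 in fructose, and differed by -0.62. SNORD44, known to laboratories as RNU44 and often used as a reference RNA in microRNA assays, had 6.88, 6.87 and 7.04 in glucose and 6.39, 6.71 and 6.38 in fructose. Its difference was the smallest of the 7, -0.44 (95% interval -0.69 to -0.18), and it was 1.35-fold lower in fructose. The GAS5 transcript itself is not given here, since its probe sets name other genes as well.

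**Figure D2:**
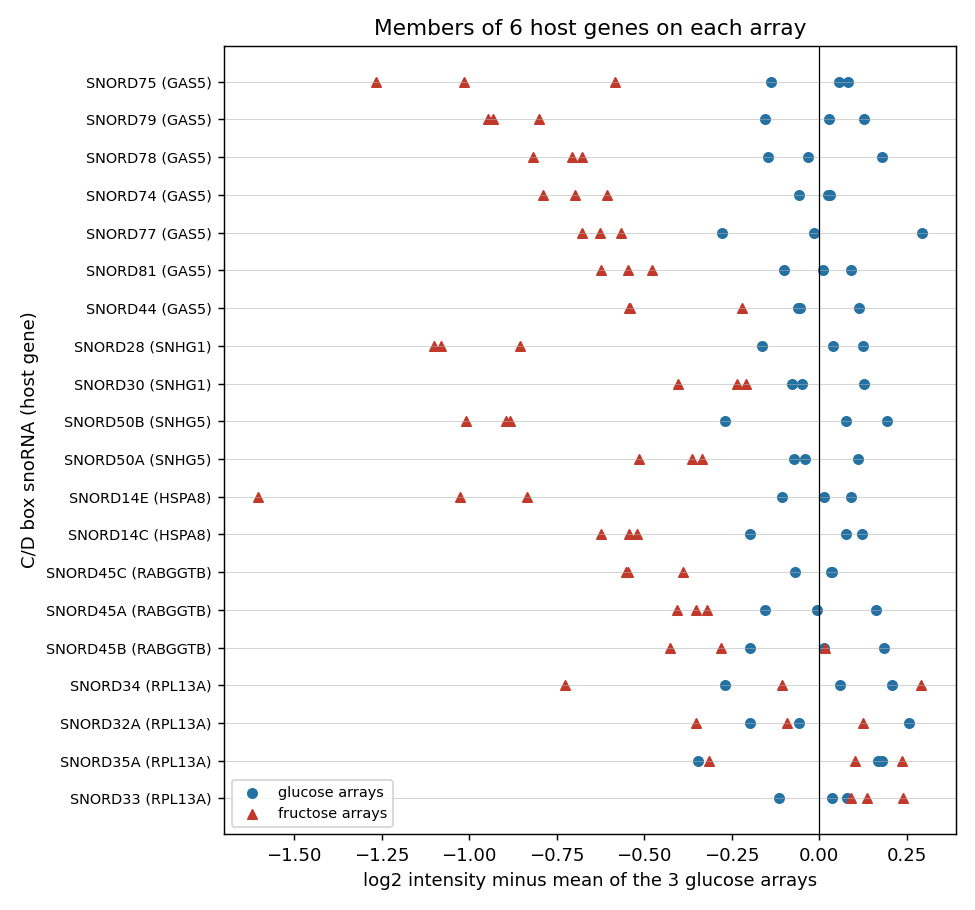
Each row is a C/D box snoRNA with its host, and each point is 1 array, as log2 intensity minus the mean of the 3 glucose arrays (circles glucose, triangles fructose). All 7 GAS5 members have their fructose arrays left of every glucose array, whereas the arrays of SNORD32A, SNORD34 and SNORD35A in RPL13A overlap.

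The noncoding hosts other than GAS5 hold 9 members, of which 8 were lower, with a median of -0.41. All 6 bright ones among them were lower, 5 without overlap of arrays, against 15.2% of bright probe sets. SNORD28, a guide in SNHG1, had 8.23, 8.31 and 8.02 in glucose and 7.09, 7.33 and 7.11 in fructose. It was 2.02-fold lower (difference -1.01, SE 0.11, limma adjusted p = 0.11, and 0.0028 with the trend). SNORD30, also in SNHG1, differed less, by -0.28 (SE 0.09), with 8.53, 8.55 and 8.73 against 8.37, 8.39 and 8.20, and its groups did not overlap either.

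SNORD50A and SNORD50B, a pair in SNHG5 that is often deleted in cancers, both had lower values on every fructose array. SNORD50B had 8.53, 8.41 and 8.07 in glucose and 7.32, 7.44 and 7.45 in fructose, a difference of -0.93 (SE 0.12, limma adjusted p = 0.13, and 0.010 with the trend). SNORD50A had 8.23, 8.26 and 8.41 against 7.78, 7.93 and 7.96, a difference of -0.41 (SE 0.08). The gap between the pair's differences was not tested.

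SNORD52 in SNHG32 had 8.47, 8.63 and 8.42 in glucose and 8.12, 8.01 and 7.98 in fructose, a difference of -0.47 (SE 0.08). SNORD1A in SNHG16 was dim and differed by -0.51, while its neighbour SNORD1B, at a level near the lowest on the arrays, differed by 0.04. SNORD49A in SNHG29 differed by -0.17, with 1 fructose array inside the glucose range.

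**Figure D3:**
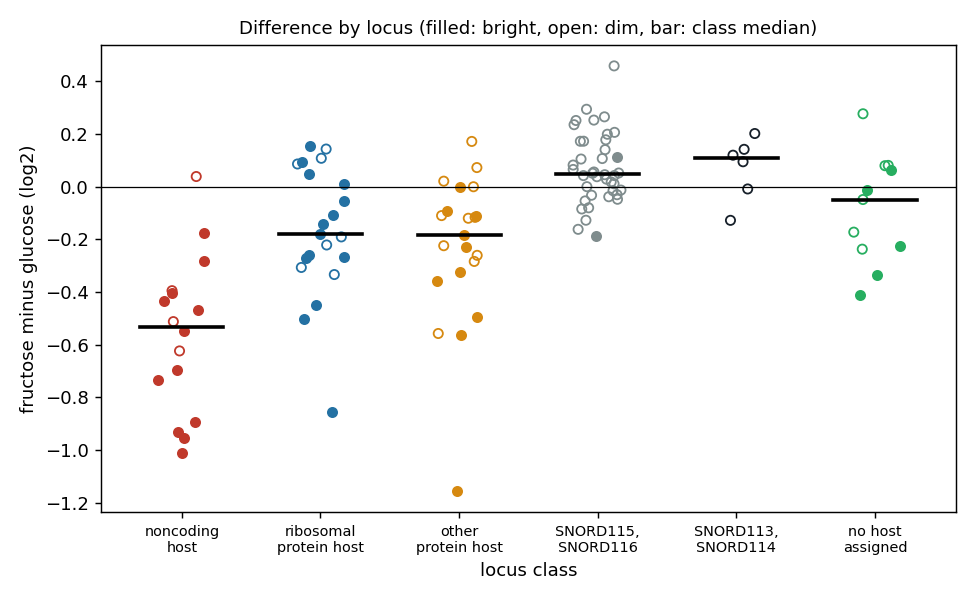
Log2 differences of the 115 members by class of locus, with bright members filled, dim members open and the class median as a bar. The median is -0.53 for noncoding hosts, -0.18 for ribosomal protein hosts and -0.18 for other protein hosts, and 0.05 for SNORD115 and SNORD116; over all imprinted copies the median of 0.05 became -0.01 after a second quantile normalization.

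Members could be set beside the RNA of their host where the host had a probe set of its own, the brightest being used. Most of these hosts code for proteins, while SNHG29 and ZFAS1 are noncoding. For RPL23A, RPL5 and RPL7A the host's probe set is numbered far from those of the snoRNAs. Whether it reads the same locus was not checked. HSPA8, the constitutive heat shock cognate chaperone, carries U14 copies, which are needed for processing of the small subunit RNA as well as for methylation. SNORD14E had 7.22, 7.02 and 7.14 in glucose and 5.52, 6.29 and 6.10 in fructose. It was 2.23-fold lower, the largest difference of any member (-1.16, SE 0.19, limma adjusted p = 0.14, and 0.026 with the trend), and fructose replicate 1 was its lowest array. SNORD14C had 6.91, 6.87 and 6.59 against 6.17, 6.25 and 6.27, a difference of -0.56 (SE 0.10). HSPA8 mRNA differed by -0.03 (95% interval -0.18 to 0.11), and the intervals of both snoRNAs, -1.60 to -0.71 and -0.80 to -0.33, lay wholly below that. U14 copies are close in sequence, so probes may read more than 1 of them.

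RABGGTB, a subunit of the Rab prenylation enzyme, carries 3 members. SNORD45C had 6.13, 6.23 and 6.23 in glucose and 5.81, 5.65 and 5.64 in fructose, a difference of -0.50 (SE 0.08, limma adjusted p = 0.13, and 0.028 with the trend). SNORD45A differed by -0.36 with no overlap of arrays and SNORD45B by -0.23 with overlap. The host mRNA differed by 0.02 (95% interval -0.16 to 0.20). NCL, whose protein nucleolin is abundant in nucleoli, carries SNORD82, which was dim and differed by -0.56, while the host differed by -0.12. The other measured member in NCL, SNORD20, had a mean log2 intensity of 2.42 and differed by -0.11.

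Over the 14 bright members whose host was measured, 12 were below their host in difference. The median was -0.27 for these members and -0.02 for their 8 hosts. In 7 of the 14 the log2 value of the snoRNA minus that of its host was lower on every fructose array than on any glucose array. No like share over other pairs of genes is at hand for these counts, so they are a description only. The gap between member and host was not tested. RPL17 was the host with the lowest difference, -0.38, beside -0.50 for its member SNORD58A, whose fructose replicate 2 reached into the glucose range.

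**Figure D4:**
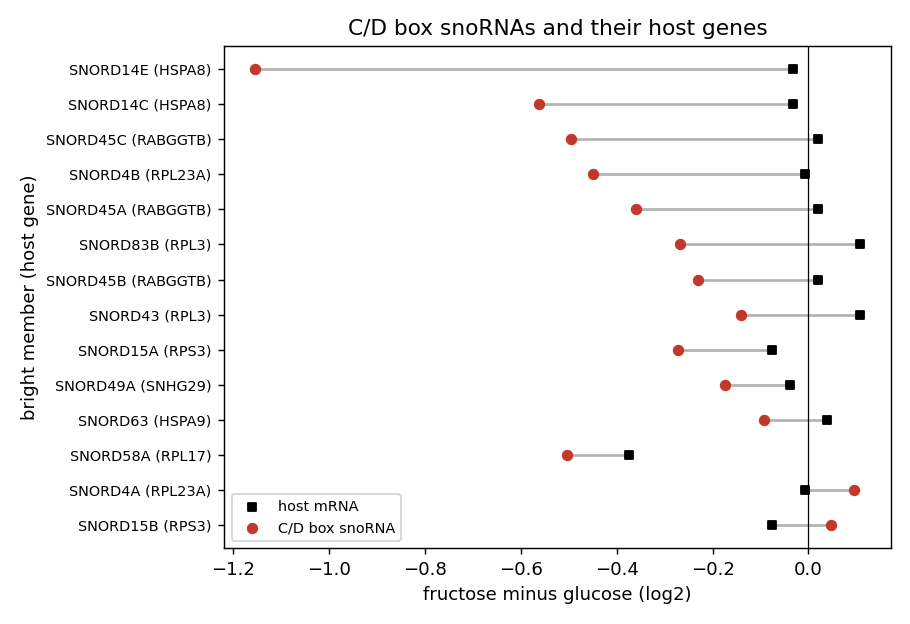
Log2 differences, fructose minus glucose, of the 14 bright members with a measured host (circles) and of the host (squares), joined by a line. The hosts lie between -0.38 and 0.11, and 12 of 14 members lie left of their host.

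Members in ribosomal protein hosts lay on both sides of 0. Among the 21 the median was -0.18, 14 were lower, and 5 (23.8%) were lower without overlap of arrays, against 8.81% of all probe sets. Of the 14 bright ones 3 (21.4%) were, against 15.2% of bright probe sets. The RPL13A introns carry SNORD32A, SNORD33, SNORD34 and SNORD35A, snoRNAs known for roles in lipotoxic and oxidative stress and in glucose metabolism of mice and cultured cells. Their median was -0.05. SNORD33 had 6.44, 6.48 and 6.29 in glucose and 6.64, 6.49 and 6.54 in fructose, the only bright member whose fructose arrays all lay above the glucose arrays, by a narrow margin (difference 0.16, 95% interval -0.04 to 0.35, limma adjusted p = 0.47). SNORD32A differed by -0.11, SNORD34 by -0.18 and SNORD35A by 0.01, each with overlapping arrays. For SNORD34 the direction turned without fructose replicate 3, to 0.09.

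In RPL23A, SNORD4B differed by -0.45 and SNORD42A by -0.22, and SNORD4A by 0.09, and of these only SNORD42A had arrays that did not overlap. In RPL3, SNORD83B differed by -0.27 and SNORD43 (RNU43, another common reference RNA) by -0.14, both with overlap, while the mRNA differed by 0.11. SNORD15A in RPS3 differed by -0.27 without overlap and its paralog SNORD15B by 0.05. RACK1, a scaffold protein on the small ribosomal subunit that was counted with the other protein hosts, carries SNORD95 and SNORD96A, which serve as reference RNAs in commercial microRNA assays. SNORD96A had 7.13, 7.11 and 7.27 in glucose and 7.17, 7.21 and 7.13 in fructose, with a difference of 0.00 (95% interval -0.17 to 0.17). SNORD95 differed by -0.11 (95% interval -0.28 to 0.05), with every fructose array below every glucose array.

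In NOP56, which codes for a protein of the C/D particle itself, SNORD57 had 8.40, 8.61 and 8.36 in glucose and 8.33, 8.19 and 8.30 in fructose. The difference was -0.18 (95% interval -0.39 to 0.03), and the groups did not overlap. SNORD117 in DDX39B, an RNA helicase of splicing, differed by -0.32 with no overlap of arrays. SNORD63 in HSPA9, a mitochondrial chaperone, was bright and differed by -0.09 with overlap.

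Dim members outside the imprinted loci numbered 28, of which 18 were lower, and the median was -0.12. Without overlap 6 (21.4%) were lower, against 8.81% of all probe sets, bright ones included. In other protein hosts the 11 dim members ran from -0.56 (SNORD82) to 0.17 (SNORD8 in CHD8). SNORD61 in RBMX, another reference RNA of microRNA assays, differed by -0.22 with overlapping arrays at a mean log2 intensity of 2.86, and SNORD37 in EEF2, an elongation factor, by -0.12. In ribosomal protein hosts the 7 dim members had a median of -0.19, with SNORD54 in RPS20 at -0.33 without overlap. SNORD12C in ZFAS1, a noncoding host, differed by -0.39 with overlap.

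Members with no host assigned here numbered 11, among them U13, which has a role in precursor processing. U13 (SNORD13), transcribed from its own promoter and needed for acetylation of the small subunit RNA, had 9.76, 9.56 and 9.73 in glucose and 9.80, 9.75 and 9.68 in fructose. Its groups overlapped, with a difference of 0.06 (95% interval -0.13 to 0.25). The pseudogene copies of U13 are close to it in sequence, and their probe sets need not read separate RNAs. SNORD13P3 had 8.55, 8.44 and 8.79 against 8.29, 8.30 and 8.19, a difference of -0.33, SNORD13P2 differed by -0.01, and SNORD13P1 spread from 3.60 to 5.33 in glucose and from 3.56 to 5.75 in fructose, so its difference of -0.05 (SE 0.62) has no direction; leaving out single arrays turned the sign of both. SNORD41 differed by -0.41 with no overlap, SNORD104 by -0.22 and the dim SNORD7 by -0.24, also without overlap. The margin of SNORD104 was very narrow, with 8.1267 on its highest fructose array and 8.1270 on its lowest glucose array. SNORD56B, dim as well, differed by 0.28 with overlap. RefSeq places SNORD41, SNORD104, SNORD7 and SNORD56B within the span of TNPO2, SNHG25, SNHG30 and SIPA1L1, which were not assigned as hosts here. Copies of U3 and SNORD22 are read by probe sets that name several genes and are not analysed here.

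The imprinted copies made up 46 of the 115 members, 2 of SNORD113, 4 of SNORD114, 20 of SNORD115 and 20 of SNORD116. Of these, 44 were dim, with mean log2 intensities between 1.57 and 3.53. The median over the 46 was 0.05 with 15 lower and 31 higher, and it became -0.01 after a second quantile normalization, so it has no settled direction. In 7 of the 44 dim copies, which is 15.9%, every fructose array was above every glucose array, against 8.37% of all probe sets as dim as these, and in 0 every fructose array was below, against 3.28%. At an unadjusted p under 0.05 in limma, 6 of the 44 were higher and 0 of the 44 lower, against 6.1% and 2.44% of probe sets that dim. By family the median was 0.05 for SNORD115, with 6 of 20 copies higher without overlap, and 0.04 for SNORD116, with 1 of 20. It was 0.13 for SNORD114 and -0.07 for SNORD113, with all arrays overlapping in both. Probe sets of that dimness had a median of 0.04, beside 0.05 for the 44 copies. SNORD115-44 had the largest difference, 0.46, with 1.67, 2.02 and 1.65 in glucose and 2.33, 2.04 and 2.35 in fructose. These are among the lowest values on the arrays, where the medians of all probe sets were 31.5 to 33.5 in intensity and this copy had 3.46 ± 0.53 (SD, n = 3) in glucose.

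The bright imprinted copies were both of SNORD116. SNORD116-6 had 9.43, 10.14 and 9.62 in glucose and 9.92, 9.65 and 9.95 in fructose, with a difference of 0.11 (SE 0.18) that turned to -0.04 without glucose replicate 1. SNORD116-15 had 6.58, 6.39 and 6.34 against 6.38, 6.12 and 6.25, a difference of -0.19 (SE 0.10). Both overlapped between sugars. Copies of a cluster are nearly identical, so the 46 are not independent, and a probe set named for a single copy may read several.

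Other short RNAs on the same arrays were set beside the C/D class. The lists were not matched in length, and the part of extraction and labelling was not tested. The 27 bright H/ACA snoRNAs (SNORA), which guide pseudouridylation, had a median of -0.05, with 3 (11.1%) lower and 1 (3.70%) higher without overlap, where all bright probe sets had 15.2% and 16.4%. The 8 bright Cajal body RNAs (SCARNA), which guide modification of spliceosomal RNAs, had a median of 0.12. Without overlap of arrays, 2 (25%) of them were lower and 2 (25%) higher. The 27 other bright genes with a RefSeq length of at most 200 bases had a median of 0.08, with 0 lower and 6 higher without overlap. The medians of these lists thus ran from -0.05 to 0.12, beside -0.27 for the bright C/D members, and the difference between the classes was not tested. Of the 21 bright probe sets that name a SNORD gene together with another gene, 17 were lower and 11 (52.4%) were lower without overlap, with a median of -0.15.

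Genes for proteins that build, move and trim C/D particles differed by small amounts. Of 37 listed, 34 had a probe set of their own, and 28 of these were lower in fructose with a median of -0.06. None passed limma's test over all probe sets (0.00354% lower and 0% higher in all), 7 were lower and 0 higher at an unadjusted p under 0.05, and 14 (41.2%) were lower without overlap of arrays. As 33 of the 34 were bright, the shares to set beside these are those of bright probe sets, 8.38% at the unadjusted p and 15.2% without overlap. For both the intensity trend and bright probe sets alone, 1 of them fell past the threshold, XPO1, against 0.762% and 2.15% of the probe sets tested, so the count is near the background of the latter. Among core proteins, the methyltransferase FBL had a mean log2 intensity of 11.33 in glucose and 11.25 in fructose and differed by -0.09 (95% interval -0.23 to 0.06). NOP58, a scaffold of the particle, had 9.59 against 9.41 and differed by -0.18 (SE 0.06). NOP56 and SNU13 have no probe set of their own. Assembly factors ranged from -0.18 for RPAP3, a cochaperone subunit, to 0.04 for the ATPase RUVBL2, and ZNHIT6, an assembly factor specific to C/D particles, differed by -0.15.

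In transport and storage, the export receptor XPO1, which carries U3 precursors to nucleoli, differed by -0.23 (SE 0.06, limma adjusted p = 0.23, and 0.033 with the trend). NOLC1, a chaperone of snoRNA particles in nucleoli, differed by -0.15, and TGS1, which adds the cap of U3 and U13, by -0.03. Among U3 partners the GTPase BMS1 differed by -0.19 and NAT10, the acetyltransferase that U13 serves, by -0.01. In trimming and decay, the exosome nuclease DIS3 differed by -0.22 and its helicase MTREX by -0.19, while EXOSC10, which trims snoRNA ends, differed by -0.03.

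**Figure D5:**
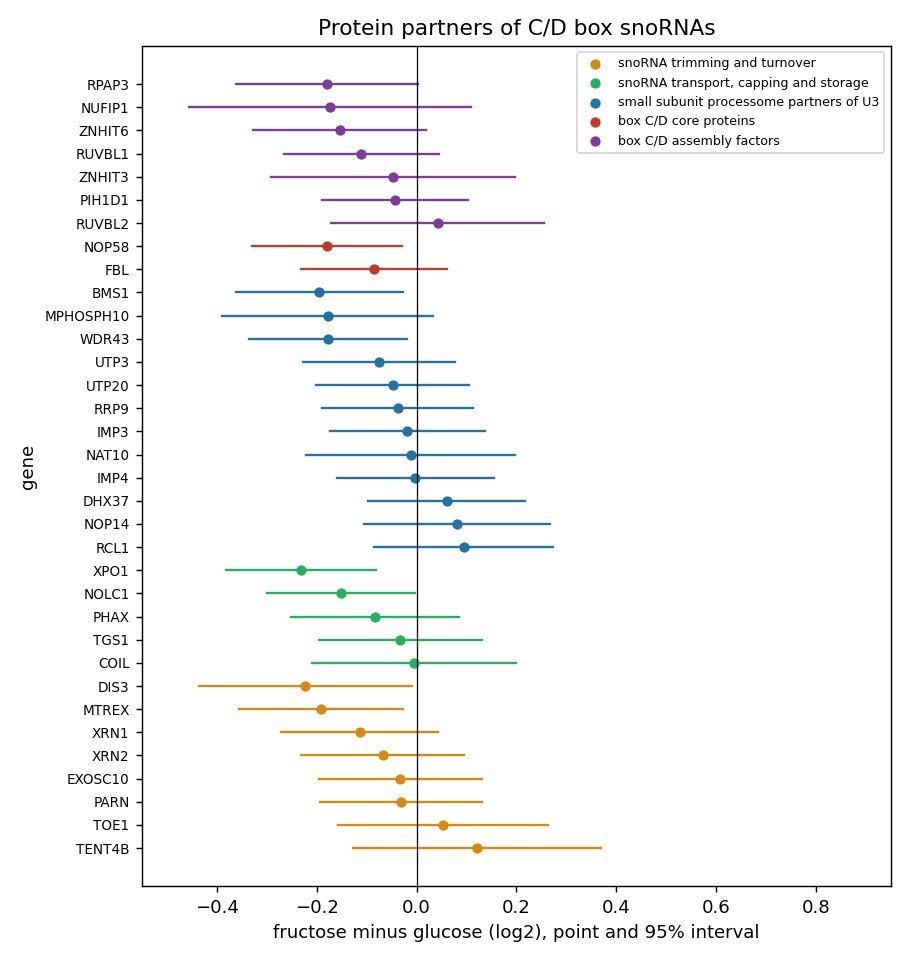
Log2 difference, fructose minus glucose, with its 95% interval from limma for 34 genes of proteins that work with C/D box snoRNAs, coloured by list. Of the 34, 28 lie below 0, and all lie between -0.23 and 0.12.

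Facts of the whole series that bear on these values are few. Intensities ran from 2.15 to 7938 over tested probe sets. All 4 mesenchymal markers of the line (VIM, CD44, AXL, MSN) were bright, with 1 of 5 luminal markers (GATA3), 1 of 4 measured leukocyte markers (CD68) and 0 of 5 fibroblast markers. The summed intensity of the leukocyte list was 1577 to 1661 in glucose and 1698 to 1927 in fructose, mostly from CD68, that of the fibroblast list 98.8 to 99.8 and 89.6 to 96.3, and that of the luminal list 133 to 139 and 119 to 140. Their part in the results was not tested. The median standard error of a difference was 0.10 for bright members and 0.08 for all bright probe sets, and 3 arrays a group limit the precision.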

How the data were processed

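The values are RMA intensities made by the authors, per the submitters' processing notes, and the deposited numbers are linear, with 1 for each probe set on each array. RMA's version and genome build: not given in the sources used here. Log2 was taken with no pseudocount. Of 32321 rows, 4091 with identifiers below the lowest one paired with a gene were taken as controls and left out, and 28230 were tested. Symbols are those of the platform annotation, and all 115 members matched the RefSeq gene table (GRCh38.p14), which placed each of the 58 assigned members inside its host. Groups were compared with limma 3.58.1 in R 4.3.3 (lmFit, eBayes, two-sided, 3 against 3, no covariate), with Benjamini-Hochberg adjustment over all tested probe sets at 0.05. The script was tested on simulated data. Members and gene lists were chosen with earlier results of these data known. Named members were the U3, U13, U14, SNORD22 and SNORD118 copies, the 10 brightest, the 10 bright ones with the largest difference and no overlap, and the most different of each host with 3 or more; others are named to describe their locus, and 1 locus is not reported here. The alternatives tried were quantile normalization again, centring, array weights, robust variances with an intensity trend, each array left out in turn, the replicate number as a block, bright probe sets alone, an unmoderated test, control probe sets kept and the mean of probe sets. Same-numbered arrays did not deviate together (correlations -0.03, -0.02 and -0.05), so the numbers were not taken as pairs.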

Additional observations from a re-analysis of the deposited data

How the results depend on the processing

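The count of members past limma's adjusted threshold was 0 in the reported fit, with 34 at an unadjusted p under 0.05. It was 13 with an intensity trend and robust variances and 15 with bright probe sets alone, where fewer probe sets are adjusted over, and 0 under all other alternatives run. Over all probe sets the count of 1 became 473, 605 and, in the unmoderated test, 0 (members at an unadjusted p under 0.05: 22 lower and 3 higher, by limma's moderated test 28 and 6). For the protein partners the count of 0 became 1 under each of the first pair of settings. A second quantile normalization moved the median of all members from -0.05 to -0.10 and that of imprinted copies from 0.05 to -0.012. With each array left out, the medians ranged from -0.11 to -0.036 for all members, from -0.32 to -0.24 for bright members and from 0.02 to 0.08 for imprinted copies. The bright median was -0.30 after quantile normalization and after centring. Leaving out an array turned the direction of SNORD13P1 (-0.68 to 0.41), SNORD13P2 (-0.11 to 0.11), SNORD34 (-0.42 to 0.093) and SNORD116-6 (-0.040 to 0.32), and of none of the other 20 named members. The cause of these shifts was not tested. With the replicate block 0 members and 1 probe set passed, and 29 members in place of 28 were lower at an unadjusted p under 0.05. Every member symbol had 1 probe set, so averaging probe sets left the members' values as they were.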
